A study of Mus musculus with 12 samples.

Results

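Transcripts of 40 genes of the extracellular vesicle machinery were followed in mouse bone-marrow-derived dendritic cells and in the exosomes that these cultures released. The genes were listed by symbol and cover the subunits of the ESCRT complexes, their accessory proteins, 7 tetraspanins, syntenin with its partners, 2 flotillins, a neutral sphingomyelinase and 4 SNAREs. All 40 matched a row of the count table, which has 27179 rows. Of these, 38 had enough counts to be tested, whereas Smpd3 and Vamp7 did not.

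Exosomes form when the membrane of a late endosome buds inwards and the resulting multivesicular body fuses with the plasma membrane. ESCRT-0 gathers ubiquitinated cargo, ESCRT-I and ESCRT-II shape the bud, ESCRT-III filaments close its neck, and the ATPase Vps4 takes the filaments apart. Alix and syntenin offer a second entry to ESCRT-III that starts from syndecans, tetraspanins organise membrane domains of the vesicle, and SNAREs drive fusion. The proteins of many of these genes serve as exosome markers. The values given here are levels of their transcripts.

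The 12 libraries formed 4 groups of 3. WT cells and WT exosomes came from wild-type C57Bl/6 mice 33 and 42, both female, and 46, a male. Cells and exosomes labelled DKO (double knock-out) came from the male mice 151, 152 and 153, whose labels name Sidt1 and Sidt2 as the genes knocked out. All marrow was taken from femurs and kept for 7 days in DMEM. The medium held 10% fetal calf serum and, as the source of GM-CSF, 10% X-63 supernatant. Exosomes were prepared from the medium by ultrafiltration followed by differential ultracentrifugation. Cell RNA was obtained with Tri-Reagent and exosome RNA with Trizol LS plus a Qiagen kit, so that extraction and compartment cannot be told apart. The labels do not say whether the serum or the supernatant was freed of its own vesicles beforehand. Library totals ran from 7215083 to 32273898 counts, and the 40 genes took 0.616% to 0.790% of them.

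Sidt2 was 171 to 220.2 CPM (counts scaled to the TMM-normalised size of the library) in WT cells and 0.645 to 1.33 CPM in cells labelled DKO, and in exosomes 216 to 317 against 0.850 to 2.36 CPM. Sidt1 had 3, 0 and 0 counts in WT cells and 0, 3 and 4 in WT exosomes, but 309 to 1722 counts in each library labelled DKO, against the label, so genotype is given as labelled throughout. In a principal component analysis the WT exosomes of mouse 33 stood apart from the other 11 libraries. All 7 dendritic cell markers checked were present in cells, with a summed level of 6019 to 10762 CPM, and lower in exosomes of both genotypes, at 1940.2 to 3426 CPM. Of 6 macrophage markers 4 were lower and 1 higher in WT exosomes, and 5 and 1 in DKO. Mast cell and basophil markers summed to at most 38.6 CPM and B and plasma cell markers to at most 71.5 CPM in any library. Of the 4 red cell and platelet markers Pf4 was higher in exosomes of both genotypes, though its DKO libraries overlapped. Ppbp was not called, at log2 fold changes of 0.37 in WT and -0.14 in DKO, and Hbb-bs and Hba-a1 were too low to test. The nuclear RNAs Malat1 and Neat1 were lower in exosomes of both genotypes. T and natural killer cell markers did not exceed 9.01 CPM in sum, and the natural killer gene Ncr1 was at 0 in 11 libraries. Values in lists below follow the order of mice 33, 42 and 46 for WT and 151, 152 and 153 for DKO.

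Levels can be compared between genes only per length, as RPKM on the same scaling. The transcripts of the tetraspanins Cd9, Cd63 and Cd53 and of syntenin were by far the most abundant members. Cd9, which organises plasma membrane domains, had 899 ± 40.9 RPKM (SD, n = 3) in WT cells and 874 ± 103 RPKM in WT exosomes. Cd63, a tetraspanin of late endosomes and the most widely used exosome marker, came next at 537 ± 45.7 and 627 ± 87.8 RPKM. Sdcbp, which encodes syntenin, and Cd53, a tetraspanin of leukocytes, followed at 375 ± 29.7 and 356 ± 50.5 RPKM in WT cells, and their libraries overlapped there. Chmp4b, the main filament-forming subunit of ESCRT-III, was the highest ESCRT member with 155 ± 9.34 RPKM in WT cells and 220.4 ± 7.87 RPKM in WT exosomes. The order Cd9, Cd63, Sdcbp, Cd53, Chmp4b was the same in all 4 groups. In exosomes labelled DKO the libraries of Cd63 and Sdcbp overlapped, as did those of Cd53 and Chmp4b. Below Chmp4b most neighbours in the order overlapped.

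**Figure D1:**
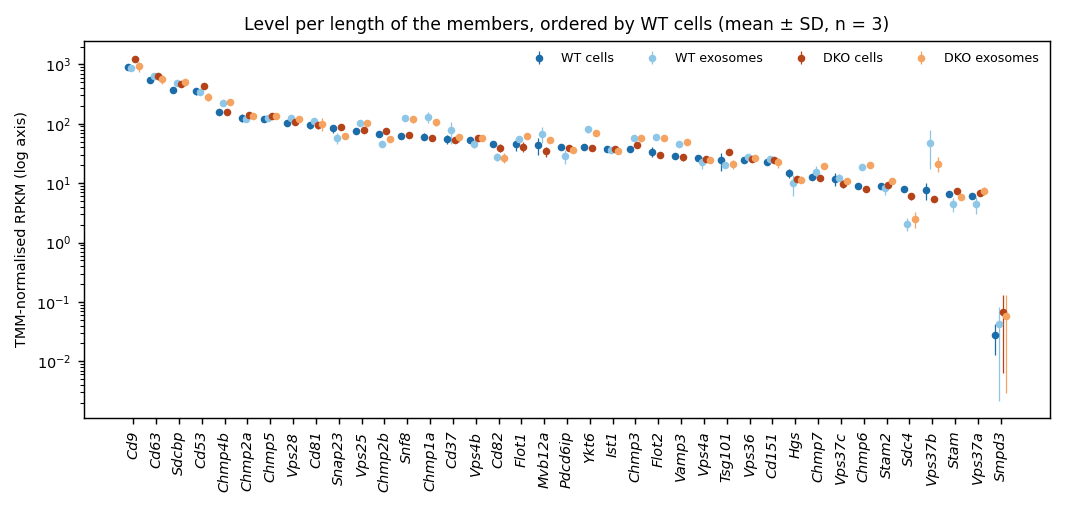
Level per length (RPKM, log axis, mean ± SD, n = 3) of the members in the 4 groups, ordered by WT cells; Vamp7, at 0, is not drawn. Cd9 leads with 899 RPKM in WT cells, and Smpd3 lies far below all tested members.

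Within a complex the subunits spanned wide ranges. In WT cells ESCRT-I ran from Vps37a at 6.13 ± 0.584 RPKM and Vps37b at 7.72 ± 2.52 RPKM to Vps28 at 102 ± 2.60 RPKM. ESCRT-II ran from Vps36 at 24.3 ± 1.45 to Vps25 at 76.7 ± 6.98 RPKM. The ESCRT-0 genes Hgs, Stam and Stam2 were all low, at 15.0 ± 2.65, 6.58 ± 0.165 and 8.83 ± 0.442 RPKM. Vps4b had 52.9 ± 3.92 RPKM and its paralogue Vps4a 26.7 ± 0.921 RPKM. Smpd3, the neutral sphingomyelinase that makes ceramide for ESCRT-independent budding, reached at most 0.702 CPM in any library. Vamp7, a SNARE of late endosomes and lysosomes, was listed at 0 counts in all 12 libraries. GENCODE places this gene on a scaffold outside the assembled chromosomes, and whether reads from there were counted was not tested, so the 0 is not given as a level.

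Exosomes were compared with cells of the same genotype to see which of the transcripts were over- or under-represented in vesicles. In WT mice 10 members were higher and 3 lower in exosomes, and 25 did not pass the test (edgeR, adjusted p below 0.05). Over all genes tested 38.3% were called in WT mice, 18.7% higher and 19.6% lower, so the members' share of calls was near that background. In the libraries labelled DKO 13 members were higher, 6 lower and 19 not called, against 47.5% of all genes, 23.7% higher and 23.7% lower. All 13 members called in WT were called in the same direction in DKO. Of 12261 genes tested in both, 1937 were called higher in both, 2050 lower in both, 838 in WT alone and 0 in opposite directions. The median log2 fold change of the 38 members was 0.21 in WT and 0.12 in DKO, against -0.02 and -0.01 over all genes tested. On total-count scaling, which moved the median of all genes to -0.39 in WT and -0.14 in DKO, the members' medians turned to -0.16 and -0.01 and the WT calls to 6 higher and 10 lower. The calls of all genes in WT then split into 1114 higher and 4134 lower, compared with 2400 and 2509. No called member changed sign with that scaling. Chmp3, Chmp4b, Vamp3 and Vps25 lost their WT call with it, and Hgs, Stam, Vps37a, Ist1, Vps4b, Pdcd6ip and Snap23 were called as lower in WT exosomes. Leaving out the WT cells of mouse 42, the WT cells of mouse 46 or the WT exosomes of mouse 42 brought the WT calls from 13 to 8 each, with losses among Vps25, Chmp2b, Chmp3, Chmp4b, Cd82 and Vamp3. Without the WT exosomes of mouse 33 there were 15, with Chmp7 and Sdcbp added. Without those of mouse 46 there were 17, with Hgs, Vps37a, Pdcd6ip, Snap23 and Cd37 added and Vps25 lost.

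**Figure D2:**
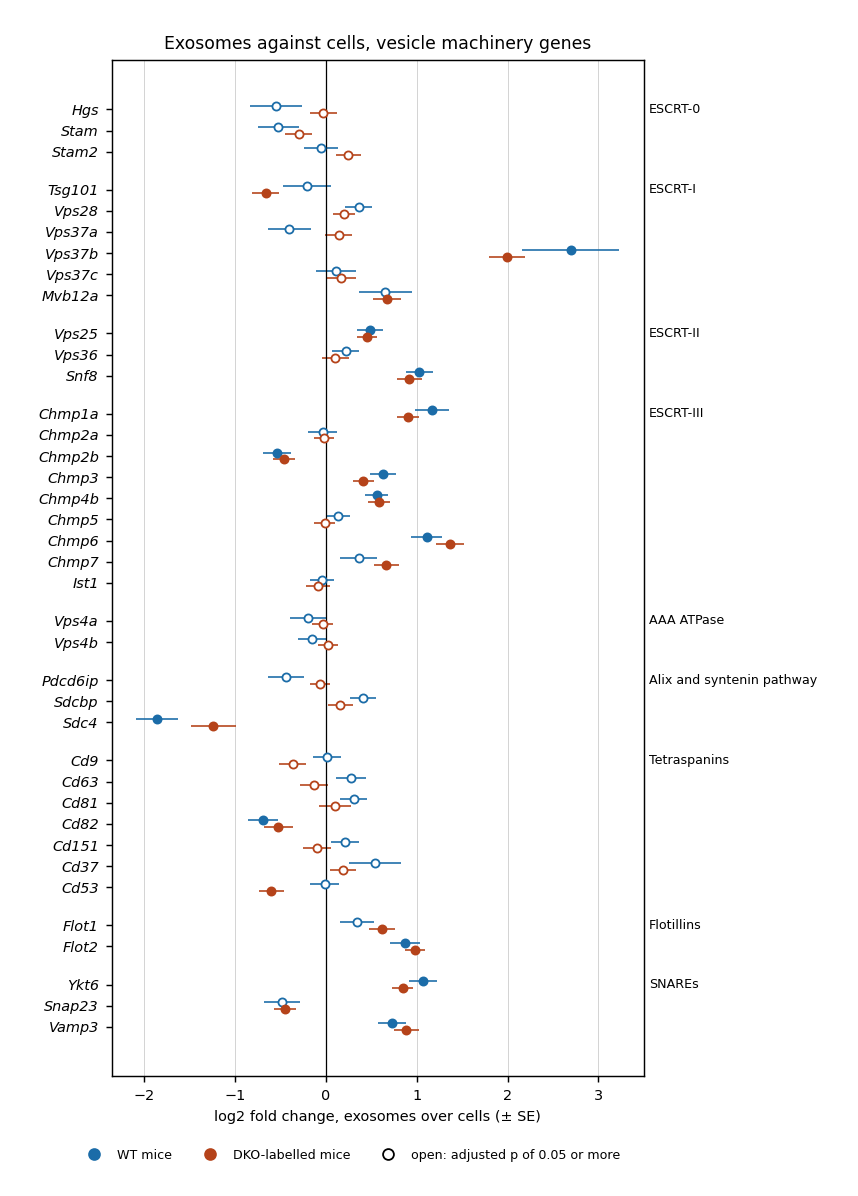
log2 fold change of exosomes over cells (± SE, 3 against 3 libraries) for the 38 tested members by class; filled points passed the test (edgeR, adjusted p below 0.05). Vps37b lies farthest to the right, at 2.69 in WT and 1.99 in DKO, and Sdc4 farthest to the left, at -1.86 and -1.24.

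None of the 3 ESCRT-0 genes, which recognise ubiquitinated cargo, was called in either genotype, against 38.3% of all genes in WT and 47.5% in DKO. Hgs, the core subunit, had a log2 fold change of -0.55 ± 0.29 (SE) in WT and -0.03 ± 0.15 in DKO. Its 17.0 CPM in the WT exosomes of mouse 33 was the lowest of 12 values, and the other 11 lay between 28.0 and 52.5 CPM. Stam and Stam2, its partners, had WT values of -0.52 ± 0.22 and -0.06 ± 0.19. On total-count scaling Hgs and Stam passed the test as lower in WT exosomes (adjusted p = 0.0412 and 0.0206, edgeR), with ranges over the alternatives of 0.0412 to 0.476 and 0.0206 to 0.216.

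Of the 6 ESCRT-I genes 1 was called in WT, as higher, and 3 in DKO, of which 1 was lower. Over all genes 38.3% were called in WT and 47.5% in DKO. Vps37b had the largest difference of any member. Vps37b (chr5:124004641-124032260, GRCm38), an alternative subunit of the complex, had 26.0, 18.8 and 13.4 CPM in WT cells and 195, 126 and 41.1 CPM in WT exosomes. In the libraries labelled DKO it had 13.0, 15.0 and 13.0 CPM in cells and 67.3, 55.0 and 38.5 CPM in exosomes. Exosomes lay above cells in both genotypes, and the WT exosomes differed among themselves more than those of DKO. The log2 fold change was 2.69 ± 0.54 in WT (adjusted p = 0.00763, edgeR) and 1.99 ± 0.20 in DKO (2.47e-05). Within a mouse the exosomes held 2.95 to 7.50 times the level of the cells in 6 of 6 mice. Without both libraries of mouse 33 the WT difference was no longer called (adjusted p = 0.0808, the highest of the alternatives, which began at 6.65e-07). In the GENCODE annotation its exons overlap those of Hip1r on the opposite strand over 918 bases, whereas the RefSeq coordinates of the pair lie apart. The annotation and strand setting behind the counts were not given in the sources used here. Hip1r had 5.95 to 11.2 CPM in cells and 4.12 to 20.4 CPM in exosomes and was called in neither genotype. In the WT exosomes it had 20.4, 9.43 and 6.43 CPM, which fell in the same order as Vps37b. The part of Hip1r in the Vps37b values was not tested.

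The summed level of 5 neutrophil markers fell in the same order as Vps37b across the WT exosomes. It was 3252, 1774 and 515 CPM there, 803 to 1662 CPM in WT cells, 604 to 1339 CPM in exosomes labelled DKO and 859 to 1232 CPM in cells labelled DKO. None of the 5 markers was at 0 in any library, and none was called between exosomes and cells in either genotype. Nearly all of each neutrophil sum was S100a8 and S100a9. Sums of macrophage, B and plasma cell, T and natural killer cell, and red cell and platelet markers fell in that order too. Those of B and plasma cells, for example, were 35.6, 13.2 and 4.39 CPM. The macrophage sum fell with Adgre1 (376, 284 and 232 CPM) and Cd68 (587, 508 and 464 CPM). The other macrophage markers, Csf1r, Mertk, Fcgr1 and Mrc1, rose in that order, Csf1r from 143 to 196 and 204 CPM. The sum of dendritic cell markers rose instead, at 2889, 2968 and 3426 CPM. Those of mast cell and basophil markers and of the nuclear RNAs did neither. Most of the dendritic cell sum was Cd74, at 1735, 1852 and 2262 CPM. Zbtb46 rose as well, Cd86 fell (37.2, 30.0 and 21.4 CPM), and Itgax, Flt3, H2-Ab1 and Ccr7 did neither. The part of any of these lists in the Vps37b result was not tested. In the bulk libraries of cells, fewer cells of a type and less RNA per cell cannot be told apart. The exosome libraries hold RNA of preparations from the medium, so their sums give no number of cells.

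The paralogues Vps37a and Vps37c were not called, with log2 fold changes of -0.40 ± 0.24 and 0.11 ± 0.22 in WT and 0.14 ± 0.15 and 0.16 ± 0.16 in DKO. Mvb12a, an accessory subunit, had 63.3, 34.1 and 43.5 CPM in WT cells and 96.0, 61.4 and 56.3 CPM in WT exosomes, and these overlapped. In DKO it went from 35.1, 44.5 and 30.4 CPM in cells to 59.9, 61.1 and 51.6 CPM in exosomes with no overlap. It rose by 0.67 ± 0.15 on the log2 scale in DKO (adjusted p = 0.0045, edgeR), while the WT value of 0.65 ± 0.29 was not called (0.11). With the mouse as a block Mvb12a was called in WT too (adjusted p = 0.0395, range over alternatives 0.0192 to 0.462). Vps28, a core subunit, was not called, at 0.36 ± 0.15 in WT and 0.20 ± 0.12 in DKO.

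Tsg101 (chr7:46888949-46926320), the ESCRT-I subunit that binds ubiquitinated cargo and Alix and a common exosome marker as a protein, was lower in exosomes labelled DKO. It had 64.1, 58.5 and 63.4 CPM in cells labelled DKO and 35.6, 46.2 and 33.3 CPM in their exosomes. The log2 fold change was -0.66 ± 0.15 (adjusted p = 0.00395, edgeR), and no library overlapped. In WT it had 27.5, 51.7 and 54.8 CPM in cells and 40.6, 33.7 and 37.6 CPM in exosomes, a difference of -0.21 ± 0.27 that was not called (0.569). The cells of mouse 33 were the low WT value. Without both libraries of that mouse Tsg101 was called as lower in WT exosomes (adjusted p = 0.0163, range over alternatives 0.0163 to 0.939).

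The ESCRT-II subunits Snf8 and Vps25 were higher in exosomes of both genotypes, and Vps36, the ubiquitin- and lipid-binding subunit, was not called. Snf8 (chr11:96034885-96047430), also known as Vps22, had 55.1, 60.7 and 64.1 CPM in WT cells and 129, 118 and 107 CPM in WT exosomes. Libraries labelled DKO had 56.0, 68.7 and 57.3 CPM in cells and 110.2, 129 and 98.8 CPM in exosomes. The lowest exosome library was above the highest cell library in both genotypes. The log2 fold changes were 1.03 ± 0.15 (adjusted p = 0.00279, edgeR) and 0.92 ± 0.14 (0.000324). Vps25, which recruits Chmp6 of ESCRT-III, rose from 87.4, 73.4 and 84.7 CPM in WT cells to 99.8, 117 and 114 CPM in WT exosomes. In DKO it rose from 82.9, 85.2 and 79.4 CPM to 104, 121 and 108 CPM. The changes were small, 0.49 ± 0.14 in WT (adjusted p = 0.0313, edgeR) and 0.45 ± 0.11 in DKO (0.0075), and on total-count scaling neither was called (0.588 and 0.0517, the highest of all alternatives, which began at 0.00569 and 0.00155). The WT call of Vps25 was also lost with the mouse as a block (adjusted p = 0.0737), with no filter on low counts (0.0939) and on leaving out any WT library but the exosomes of mouse 33 (0.0526 to 0.147). In the GENCODE annotation the exons of Vps25 overlap those of Ramp2 on the same strand over 1103 bases, whereas their RefSeq coordinates lie apart. Ramp2 had at most 3 counts in any library.

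ESCRT-III, whose filaments cut the neck of the bud, was the largest class. Of its 9 members 4 were higher and 1 lower in WT exosomes, and 5 were higher and 1 lower in DKO, against 38.3% and 47.5% of all genes called. The class median was 0.36 in WT and 0.41 in DKO on the log2 scale, and on total-count scaling it turned to -0.00448 in WT and stayed at 0.28 in DKO.

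Chmp1a (chr8:123204261-123212788), a late-acting subunit that recruits Vps4, had 152, 122 and 123 CPM in WT cells and 349, 273 and 235 CPM in WT exosomes. DKO libraries had 129, 133 and 112 CPM in cells and 207, 259 and 221 CPM in exosomes. Exosomes of each mouse held 1.60 to 2.30 times the level of its cells. The log2 fold changes were 1.17 ± 0.19 (adjusted p = 0.00401, edgeR) in WT and 0.90 ± 0.12 (0.000192) in DKO.

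Chmp6 (chr11:119913409-119919552), the myristoylated subunit that links ESCRT-II to the filament, was low in level and was higher in exosomes of both genotypes. It had 15.6, 13.4 and 12.8 CPM in WT cells, 28.7, 30.2 and 27.9 CPM in WT exosomes, 12.1, 12.7 and 11.9 CPM in DKO cells and 31.3, 32.5 and 29.1 CPM in DKO exosomes. The spread within each group was small beside the gap between compartments. Fold changes on the log2 scale were 1.11 ± 0.17 (adjusted p = 0.0032, edgeR) and 1.36 ± 0.15 (4.96e-05).

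Chmp4b (chr2:154657026-154694783) and Chmp3, both filament subunits, were higher by less. Chmp4b had 266, 239 and 243 CPM in WT cells and 339.6, 359 and 363 CPM in WT exosomes, against 263, 273 and 228 CPM and 363, 414 and 349.6 CPM in DKO. Its log2 fold changes were 0.56 ± 0.13 (adjusted p = 0.0128, edgeR) and 0.59 ± 0.12 (0.00216). Chmp3 had 87.7, 101 and 106 CPM in WT cells and 145, 146 and 148 CPM in WT exosomes, against 111, 115 and 114 CPM and 137, 169.6 and 139 CPM in DKO. Its log2 fold changes were 0.63 ± 0.14 (adjusted p = 0.011, edgeR) and 0.41 ± 0.12 (0.0154). Neither gene's exosome libraries overlapped its cell libraries. On total-count scaling Chmp3 was called in neither genotype (adjusted p = 0.198 and 0.0844) and Chmp4b lost its WT call (0.314). These were the highest of the alternatives, which began at 0.000382 and 0.0078 for Chmp3 and 7.02e-05 for Chmp4b. Leaving out the WT cells or the WT exosomes of mouse 42 ended the WT call of both genes, as leaving out the WT cells of mouse 46 did for Chmp4b (0.0512 to 0.0758). Chmp3 lost its DKO call without the cells of mouse 151 (0.0633) or 152 (0.0571).

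Chmp2b (chr16:65539128-65562762), a subunit that works with Chmp3 before Vps4 is recruited, went the other way. It had 111, 129 and 136 CPM in WT cells and 77.8, 77.7 and 95.1 CPM in WT exosomes. Cells labelled DKO had 139, 130.3 and 150.2 CPM and their exosomes 96.2, 96.6 and 107 CPM. Every exosome library was below every cell library of its genotype, and the exosomes held 0.601 to 0.741 times the level of the cells across the 6 mice. On the log2 scale the differences were -0.54 ± 0.16 (adjusted p = 0.0294, edgeR) and -0.46 ± 0.12 (0.00763). Leaving out the cells of mouse 42 or 46, or the exosomes of mouse 42, ended its WT call (adjusted p of 0.108, 0.126 and 0.118). Its paralogue Chmp2a was not called, with -0.04 ± 0.16 and -0.02 ± 0.11.

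Chmp7, which also acts in resealing the nuclear envelope, was called in DKO, from 36.0, 33.8 and 31.0 CPM in cells to 49.7, 58.4 and 48.7 CPM in exosomes. That difference was 0.66 ± 0.14 (adjusted p = 0.00223, edgeR). In WT it had 38.2, 31.0 and 33.7 CPM in cells and 33.9, 52.5 and 40.6 CPM in exosomes, and the groups overlapped. Chmp5 and Ist1, regulators of Vps4, had WT log2 fold changes of 0.13 ± 0.13 and -0.04 ± 0.13 and were not called. The ATPases Vps4a and Vps4b were not called either, at -0.19 ± 0.20 and -0.15 ± 0.15 in WT and -0.04 ± 0.12 and 0.02 ± 0.11 in DKO.

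Of the 3 members of the Alix and syntenin route, Sdc4 was called in both genotypes and Sdcbp and Pdcd6ip in neither. The share of all genes called was 38.3% in WT and 47.5% in DKO. Sdc4 (chr2:164424247-164443188), a syndecan whose cytoplasmic tail binds syntenin, had 18.8, 18.6 and 21.3 CPM in WT cells and 3.86, 6.26 and 5.20 CPM in WT exosomes. Cells labelled DKO had 13.2, 17.0 and 14.7 CPM and their exosomes 4.70, 8.36 and 5.51 CPM. The groups were far apart in both genotypes. Exosome levels fell by 1.86 ± 0.23 (log2) in WT (adjusted p = 0.00185, edgeR) and by 1.24 ± 0.25 in DKO (0.00199), the largest decrease of any member.

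Sdcbp (chr4:6365680-6396122) had 871, 992 and 1011 CPM in WT cells and 1211, 1198 and 1268 CPM in WT exosomes. The WT exosomes lay above the cells without overlap, yet the difference of 0.41 ± 0.14 just missed the threshold (adjusted p = 0.0506, edgeR). In 5 of 14 alternative analyses it was called, DESeq2 among them (0.0149, the lowest of the alternatives, which reached 0.881). In DKO it had 1163, 1128 and 1239 CPM in cells and 1156, 1486 and 1240.1 CPM in exosomes, which overlapped, with a difference of 0.16 ± 0.13. Pdcd6ip (chr9:113651744-113708279), which encodes Alix, had 255, 235 and 241 CPM in WT cells and 125, 181 and 213 CPM in WT exosomes. The WT exosomes were all lower, mouse 33 most, and the difference of -0.44 ± 0.20 was not called (adjusted p = 0.112, edgeR). It was called on total-count scaling (0.0176, the lowest of the alternatives), in the fit on all 12 libraries (0.0302) and without the WT exosomes of mouse 46 (0.0354). In DKO the values of Pdcd6ip were 244, 230.4 and 226 CPM in cells and 223, 204 and 232 CPM in exosomes, a difference of -0.07 ± 0.11 with a 95% interval of -0.30 to 0.17.

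The classical marker tetraspanins Cd9, Cd63 and Cd81 were not called between exosomes and cells in either genotype. Cd9 (chr6:125460266-125494760) had 1061, 1125 and 1029 CPM in WT cells and 1178, 1011 and 938 CPM in WT exosomes. Those groups overlapped, and the 95% interval of the log2 fold change ran from -0.34 to 0.36. In DKO it had 1453, 1533 and 1367 CPM in cells and 1277, 1167 and 879 CPM in exosomes. There every exosome library was below the cells, with a difference of -0.37 ± 0.15 that missed the threshold (adjusted p = 0.0641, edgeR) and passed it with the mouse as a block (0.0225) or without the exosomes of mouse 151 (0.0249), as it did with total-count scaling (0.00757), with no filter on low counts (0.0475) and in DESeq2 (0.0323). Over the alternatives the adjusted p of Cd9 in DKO ran from 0.00757 to 0.189.

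Cd63 (chr10:128896231-128912822) had 597, 569 and 505 CPM in WT cells and 754, 611 and 585 CPM in WT exosomes, against 642, 757 and 566 CPM and 592, 694 and 473 CPM in DKO. Compartments overlapped in both genotypes, with intervals from -0.10 to 0.65 in WT and -0.48 to 0.21 in DKO. Cd81 (chr7:143052750-143067930), a partner of immune receptors, had 161, 127 and 142 CPM in WT cells and 173, 156 and 182 CPM in WT exosomes, against 156, 153 and 119.6 CPM and 172, 170.4 and 109 CPM in DKO. It overlapped as well, with intervals from -0.04 to 0.65 and -0.28 to 0.49. Without both libraries of mouse 33 Cd81 was called as higher in WT exosomes, by 0.37 (adjusted p = 0.0479), and on total-count scaling its WT difference turned to -0.07 (0.713). Cd151, an integrin-associated tetraspanin, and Cd37, a leukocyte tetraspanin, were not called, at 0.21 ± 0.15 and 0.54 ± 0.29 in WT.

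**Figure D3:**
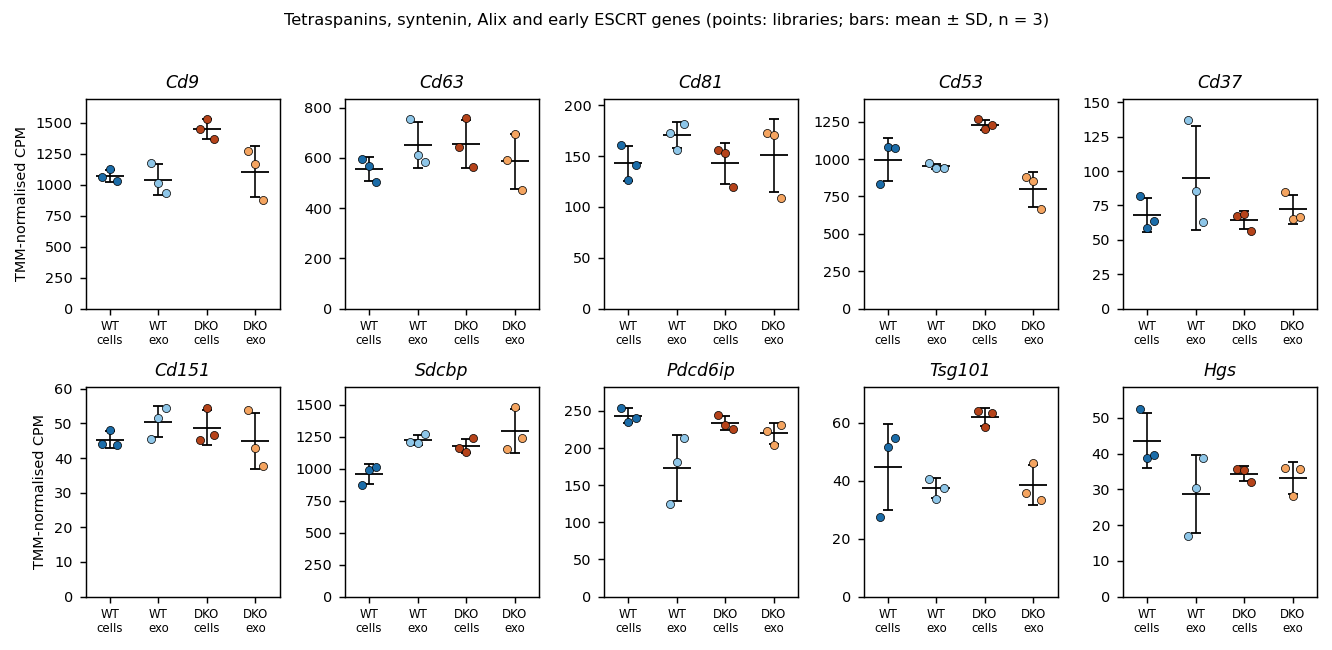
Level (TMM-normalised CPM) of 6 tetraspanin genes, Sdcbp, Pdcd6ip, Tsg101 and Hgs, 1 point a library with mean ± SD (n = 3). Cd9, Cd63 and Cd81 overlap between WT cells and WT exosomes, whereas Cd53 in exosomes labelled DKO, at 665 to 878 CPM, lies below all cells labelled DKO.

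Cd82 fell in exosomes of both genotypes and Cd53 in DKO, and on total-count scaling Cd9 was also called as lower in DKO. Cd82 (chr2:93419102-93462950), a tetraspanin of dendritic cells and lymphocytes, had 86.2, 82.0 and 88.0 CPM in WT cells and 55.1, 55.7 and 41.8 CPM in WT exosomes. In DKO it had 76.0, 81.4 and 60.3 CPM in cells and 45.0, 60.4 and 43.0 CPM in exosomes, and the groups touched. The log2 fold changes were -0.69 ± 0.17 (adjusted p = 0.0147, edgeR) and -0.52 ± 0.16 (0.0206). Its WT call was lost without the WT cells of mouse 42 (0.0533) or 46 (0.0674), and its DKO call without the cells of mouse 151 or 152 or the exosomes of mouse 151 or 153 (0.0631 to 0.0887). Cd53 (chr3:106758861-106790149) had 833, 1081 and 1076 CPM in WT cells and 973, 942 and 938 CPM in WT exosomes, which overlapped. In DKO it fell from 1267, 1200.3 and 1226 CPM in cells to 878, 852 and 665 CPM in exosomes, by 0.60 ± 0.14 in log2 terms (adjusted p = 0.00389, edgeR). The tetraspanin median was 0.21 in WT, turning to -0.16 on total-count scaling, and -0.13 in DKO. Transcripts of dendritic cell markers were lower in the same exosomes, 7 of 7 called in both genotypes, and their part in these differences was not tested.

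Of the 5 tested flotillin and SNARE genes 3 were higher in WT exosomes, against 18.7% of all genes. In DKO 4 were higher and Snap23 was lower, against 23.7% of all genes in each direction. Flot2 (chr11:78037931-78060434), a scaffold of lipid rafts, had 112, 81.9 and 82.3 CPM in WT cells and 169, 158 and 159 CPM in WT exosomes. For DKO the values were 79.3, 83.4 and 76.8 CPM in cells and 159, 147 and 161 CPM in exosomes. All exosome libraries were above all cell libraries. Its log2 differences were 0.87 ± 0.17 (adjusted p = 0.00655, edgeR) and 0.98 ± 0.11 (4.52e-05). Its partner Flot1 had 73.6, 79.8 and 56.0 CPM in cells labelled DKO and 99.2, 111 and 105 CPM in their exosomes, a rise of 0.61 ± 0.14 (adjusted p = 0.00414, edgeR). In WT Flot1 had 97.7, 67.9 and 64.4 CPM in cells and 92.0, 97.0 and 92.7 CPM in exosomes. The WT cells of mouse 33 were the high value, and without them Flot1 was called in WT too (adjusted p = 0.0358, range over alternatives 0.00842 to 0.922).

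Ykt6 (chr11:5955758-5967780), a lipidated SNARE of endosomal and vesicle fusion, had 95.5, 104 and 98.1 CPM in WT cells and 229.9, 189 and 183 CPM in WT exosomes. Among the libraries labelled DKO it had 95.9, 105 and 93.8 CPM in cells and 177, 189 and 156 CPM in exosomes. Its cell libraries of both genotypes lay within 93.8 to 105 CPM, and no exosome library came near. Exosomes exceeded cells by log2 values of 1.07 ± 0.15 (adjusted p = 0.00258, edgeR) and 0.85 ± 0.12 (0.000186). Vamp3, the SNARE of recycling endosomes, rose from 54.9, 67.6 and 59.8 CPM in WT cells to 87.4, 105 and 100.1 CPM in WT exosomes and from 48.6, 64.8 and 59.2 CPM to 94.9, 115 and 104 CPM in DKO. Its log2 fold changes were 0.73 ± 0.15 (adjusted p = 0.00927, edgeR) and 0.89 ± 0.14 (0.000445), and on total-count scaling the WT call was lost (0.128, the highest of the alternatives, which began at 0.000166). It was lost as well without the WT cells of mouse 46 (0.0536) or the WT exosomes of mouse 42 (0.0527). Snap23, their plasma membrane partner, went down in DKO, from 184, 192 and 211 CPM in cells to 128, 153 and 142 CPM in exosomes. That fall was 0.45 ± 0.12 on the log2 scale (adjusted p = 0.00931, edgeR). In WT it had 151, 208 and 197 CPM in cells and 105, 124 and 156 CPM in exosomes, a difference of -0.48 ± 0.20 with overlap (adjusted p = 0.0857).

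**Figure D4:**
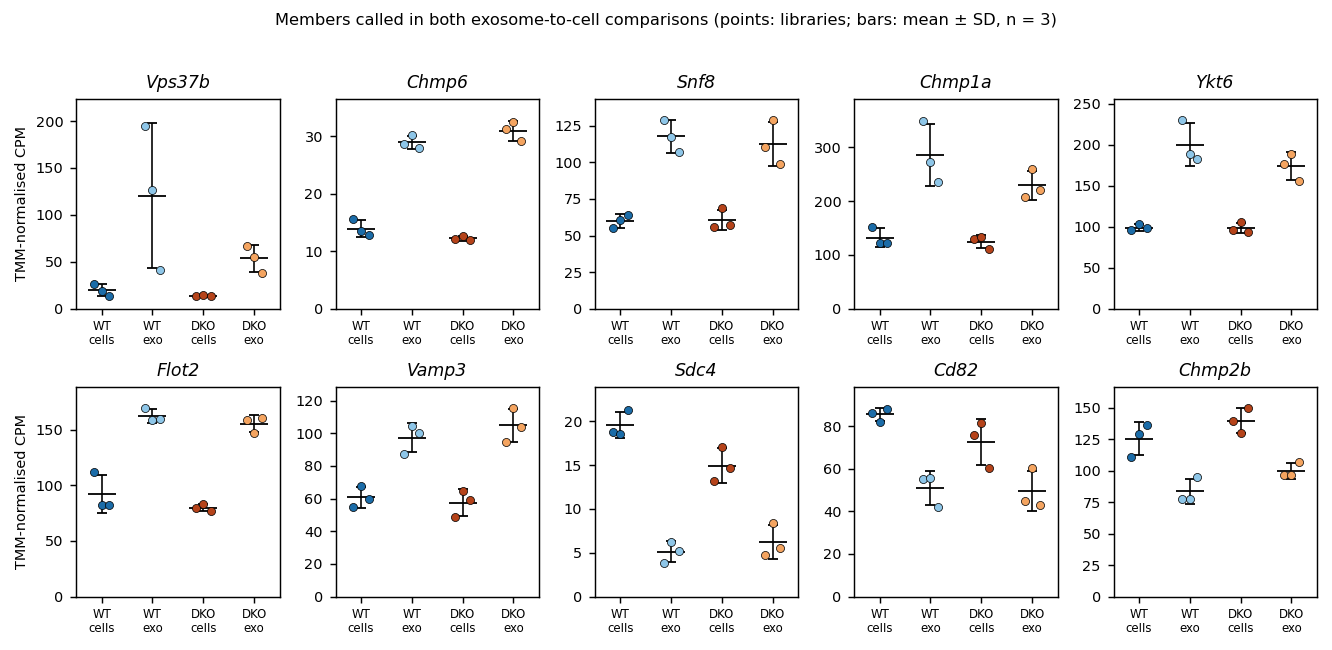
Level (TMM-normalised CPM) of 10 of the 13 members called in both genotypes, 1 point a library with mean ± SD (n = 3). Exosomes lie above cells for the 7 members from Vps37b to Vamp3 and below for Sdc4 and Chmp2b, while Cd82 touches in DKO at 60.3 and 60.4 CPM.

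The promoters of members that moved together are shown so that their shared and differing letters can be seen. Of the 40 members 29 matched a RefSeq promoter table of GRCm38.p6, with 35 promoters. The 120 bases before the annotated start are printed 5′ to 3′ on the gene's own strand for 3 members higher in exosomes of both genotypes (Chmp1a, Flot2 and Ykt6) and for 2 that were lower (Sdc4 and Chmp2b). Capitals mark the GC box GGGCGG on either strand.
Chmp1a (chr8:123212789-123212908, minus strand): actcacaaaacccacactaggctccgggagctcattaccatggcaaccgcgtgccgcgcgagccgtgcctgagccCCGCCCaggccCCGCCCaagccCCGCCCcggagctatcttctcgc
Flot2 (chr11:78037811-78037930, plus strand): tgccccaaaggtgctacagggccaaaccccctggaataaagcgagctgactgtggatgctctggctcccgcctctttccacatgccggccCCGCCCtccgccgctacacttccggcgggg
Ykt6 (chr11:5955638-5955757, plus strand): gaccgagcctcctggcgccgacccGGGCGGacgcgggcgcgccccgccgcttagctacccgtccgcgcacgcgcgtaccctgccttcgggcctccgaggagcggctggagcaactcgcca
Sdc4 (chr2:164443189-164443308, minus strand): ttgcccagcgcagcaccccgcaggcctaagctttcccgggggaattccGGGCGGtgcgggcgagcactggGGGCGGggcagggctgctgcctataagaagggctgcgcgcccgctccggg
Chmp2b (chr16:65562763-65562882, minus strand): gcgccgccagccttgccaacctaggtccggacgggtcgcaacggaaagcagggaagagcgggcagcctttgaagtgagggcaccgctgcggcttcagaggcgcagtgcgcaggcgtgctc

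Chmp1a had 3 GC boxes in this window, Sdc4 had 2, Flot2 and Ykt6 had 1 each and Chmp2b had 0, so the letters were found on both sides of the direction. Chmp4b and Vps25, also higher in exosomes of both genotypes but not printed, had 0 each in the same window. All 5 printed windows were rich in G and C, from 65.8% in Flot2 to 77.5% in Ykt6. Over the 250 bases before the start, the GC box was found in 18 of 35 promoters of members (51.4%) and in 32.7% of 32851 promoters in the table. The E-box CACGTG was found in 5.71% against 6.02%, the CCAAT box CCAAT in 22.9% against 33.9% and the AP-1 site TGACTCA in 2.86% against 4.46%, on both strands. These are matches of letters, not measured sites.

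The exosome-to-cell differences of the 2 genotypes, which share no library, were alike in direction for most members. Across the 38 members, which are not independent replicates, Pearson's r between the WT and DKO log2 fold changes was 0.91 and Spearman's rho was 0.86, compared with 0.85 and 0.84 across all genes. The sign was shared by 31 of 38 members (81.6%) and by 84.1% of all genes. In 6 of 6 mice the exosomes were above the cells of the same mouse for 12 members and below for 6, against 23.2% and 29.3% of all genes. Besides the members called in both genotypes, Vps28 and Mvb12a were above and Stam, Vps4a and Snap23 below in every mouse. The 6 members called in DKO and not in WT were Mvb12a, Chmp7, Flot1, Tsg101, Cd53 and Snap23. The test of the difference itself called no member (edgeR interaction, 0% of all genes called, and DESeq2 also called 0). Among the members Cd53 alone had an unadjusted p under 0.05, as did 776 of all 12970 genes. For Cd53 the interaction was -0.57 ± 0.20 on the log2 scale (adjusted p = 0.715, edgeR). The interval for Tsg101 ran from -1.12 to 0.23 and that for Vps37b from -1.99 to 0.63 (95%, log2), and both included 0.

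Between genotypes no member was called. In cells 0.404% of all genes passed the test. Of the 38 members 6 had an unadjusted p under 0.05, as did 1415 of all 13106 genes. Libraries labelled DKO did not overlap WT for 8 members that were above and 4 that were below, against 7.52% and 9.71% of all genes. In exosomes 0.0332% of all genes passed, and 2 members had an unadjusted p under 0.05, as did 1004 of all 12064 genes. There 6 members lay above and 1 below without overlap, against 8% and 6.77% of all genes. The WT mice were of both sexes and the DKO mice all male, so sex was partly confounded with genotype.

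Cd9 was the member nearest to a call in cells. Its 1453, 1533 and 1367 CPM in cells labelled DKO all exceeded the 1061, 1125 and 1029 CPM of WT cells, a log2 difference of 0.46 ± 0.10 with a 95% interval of 0.23 to 0.69 (adjusted p = 0.108, edgeR). DESeq2 called it (adjusted p = 0.00307), as did edgeR without a filter on low counts (0.0418), and the adjusted p over the 13 alternatives ran from 0.00307 to 0.897. In exosomes Cd9 overlapped between genotypes, at 0.08 ± 0.19 with an interval of -0.35 to 0.50. Cd53 and Sdcbp were also higher without overlap in cells labelled DKO, by 0.33 ± 0.13 and 0.32 ± 0.11, but were not called (adjusted p = 0.406 and 0.369). Sdc4 and Hgs were lower without overlap, at -0.35 ± 0.15 and -0.32 ± 0.14. In exosomes the largest difference was that of Vps37b, -1.18 ± 0.48 with an interval of -2.26 to -0.09 (adjusted p = 0.552, edgeR), whose groups overlapped. Without the WT exosomes of mouse 46, the lowest WT library, it was called (adjusted p = 0.0329, the lowest of the alternatives, which reached 1.00). With sex as a covariate the difference turned to 0.38 (adjusted p = 1.00). Vps37a differed by 0.72 ± 0.25 in exosomes and was not called (adjusted p = 0.552).

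**Figure D5:**
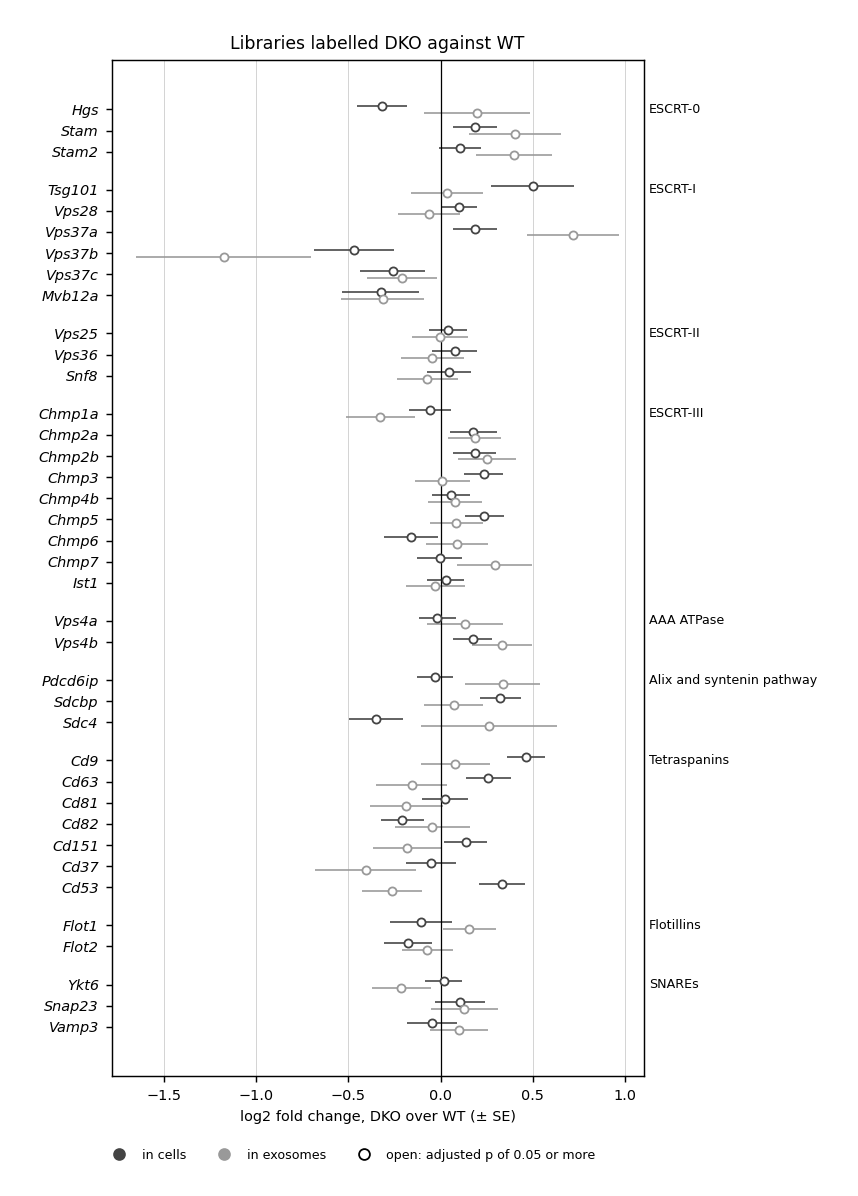
log2 fold change of libraries labelled DKO over WT (± SE, 3 against 3 libraries) for the 38 tested members, in cells (dark) and in exosomes (light). All points are open because none passed the test (edgeR, adjusted p below 0.05); Cd9 in cells lies at 0.46 and Vps37b in exosomes at -1.18.

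Further genes of the machinery were called in both directions, and their counts stand beside 18.7% higher and 19.6% lower over all genes in WT and 23.7% in each direction in DKO. Of 25 tested further ESCRT and associated genes 4 were higher and 2 lower in WT exosomes, and 6 and 2 in DKO. Tollip, an adaptor of ubiquitinated cargo, rose by 1.04 ± 0.15 and 0.84 ± 0.11 on the log2 scale, and Nedd4l, a ubiquitin ligase, by 1.31 ± 0.26 and 1.96 ± 0.15. Zfyve16, an endosomal FYVE-domain protein, fell by 1.13 ± 0.30 and 0.87 ± 0.29. Of 13 further tetraspanins 4 were higher and 3 lower in WT, and 5 and 4 in DKO.

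Several of these tetraspanins differed more than any listed member of the family. Tspan5 and Tspan17, which accompany the protease ADAM10, rose by 1.54 ± 0.15 and 2.18 ± 0.23 in WT and by 1.37 ± 0.12 and 1.91 ± 0.22 in DKO. Tspan13 fell by 2.80 ± 0.32 and 3.33 ± 0.25, and Tspan33, another partner of ADAM10, by 1.90 ± 0.31 and 2.33 ± 0.33. Tspan3 was the sole gene of these lists called between genotypes, in cells, at -0.59 ± 0.10 (adjusted p = 0.0336, edgeR). Of 23 further SNAREs and SNARE regulators 9 were higher and 2 lower in WT and 9 and 3 in DKO, with the endosomal Vti1b at 0.93 ± 0.14 and 0.67 ± 0.11 and Stx7 at 0.66 ± 0.13 and 0.65 ± 0.11. Among genes of vesicle tethering and motility, 2 of 12 were higher and 2 lower in WT and 7 of 11 higher and 2 lower in DKO. Rab31, a GTPase linked to ESCRT-independent exosome formation, rose by 1.12 ± 0.16 and 1.11 ± 0.14, whereas Rab27a, which docks multivesicular bodies, fell by 1.53 ± 0.27 and 1.45 ± 0.18. Of the further syntenin, syndecan and sphingomyelinase genes 2 of 14 were higher and 1 lower in WT, and 3 of 13 and 2 in DKO. Cttn, which encodes the actin regulator cortactin, rose by 1.60 ± 0.31 and 1.23 ± 0.19, and Pld2, a phospholipase of the syntenin route, fell by 0.96 ± 0.24 and 0.47 ± 0.16.

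As a description, Spearman's rho between gene length and the log2 fold change was -0.30 in WT and -0.07 in DKO across 38 members, against -0.37 and -0.27 across all genes, which are not independent replicates.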

How the data were processed

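RNA was measured in 12 libraries from 6 mice. The authors deposited whole counts of reads for each gene and its length, made with featureCounts on mm10, per the submitters' processing notes. Aligner, versions, annotation and strand setting were not given in the sources used here. Single-library tables held the same values as the series table. Symbols and coordinates were matched by gene identifier to RefSeq GRCm38.p6, and 1904 rows stayed unnamed, with 1.06% to 7.88% of a library's counts.

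The test was edgeR 4.0.16 (R 4.3.3), quasi-likelihood, robust, with filterByExpr by group and TMM scaling. P-values were adjusted by Benjamini-Hochberg across every gene tested. The model was fitted on the 6 libraries of each comparison and on all 12 for the interaction, and a gene is called at an adjusted p below 0.05. It was also run on simulated counts with the same fixed spread for every gene and few changed genes. That setting is unlike the exosome-to-cell comparisons, where 38.3% and 47.5% of genes were called. SE is the absolute log2 fold change divided by the square root of F, and 95% intervals use edgeR's total degrees of freedom. Levels are CPM or RPKM with TMM factors over 12 libraries.

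Members and lists were chosen with earlier results of these data known. All members may be named, with values in every library for those called between compartments and for Cd9, Cd63, Cd81, Tsg101, Pdcd6ip and Sdcbp. Of each other list up to 3 genes with the smallest p in each direction may be named. The cells and exosomes of a mouse share its number, so the numbers pair them. Their deviations from the group means correlated at 0.00549 to 0.147, and 5 of 6 mice matched their own number best. Alternatives were other scalings, filters, DESeq2 1.42.0, the mouse as a block, sex as a covariate, a fit on 12 libraries and each library left out.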

Additional observations from a re-analysis of the deposited data

How the results depend on the processing

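Leaving out each library in turn gave 8 to 17 members called in WT exosomes against WT cells (13 with all), 17 to 19 in DKO (19 with all), 0 in DKO cells against WT cells, 0 to 1 in DKO exosomes against WT exosomes and 0 for the interaction. The replicate block by mouse gave 13 calls in WT, 12 of them shared, 20 in DKO and 0 for the interaction. In WT it removed Vps25 and added Mvb12a, in DKO it added Cd9, and it changed no other call of a member. In DKO cells against WT cells, no filter on low counts gave 1 call and DESeq2 gave 1, Cd9 in both. A fit on all 12 libraries, and leaving out both libraries of mouse 33, gave 19 calls each in WT. The first added Stam, Vps28, Mvb12a, Pdcd6ip, Sdcbp and Snap23, and the second removed Vps37b and added Tsg101, Mvb12a, Chmp7, Sdcbp, Cd81, Flot1 and Snap23. Snf8, Chmp1a, Chmp6, Sdc4, Flot2 and Ykt6 were called in WT under all 14 alternatives. No call of a member turned its direction under any alternative run. With 3 libraries a group the smaller differences depended on the libraries used, and the shallowest library had 7215083 counts. In the fit with a term for sex, WT is represented for the contrast by its sole male mouse.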
